A study of Mus musculus with 11 samples.

Results

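The comparison described here set the Sertoli valve (SV), the terminal stretch of the seminiferous tubule where it opens into the rete testis (RT), against the convoluted seminiferous tubules (ST). Its members were chosen by label: all 4 SV arrays and all 4 ST arrays, 8 of the 11 arrays of the series, over all 45101 probe sets. The other 3 arrays hold RT and entered only the estimate of the spread. Every array, SV, ST and RT, was made from a pool of 20 testes of W/Wv mice aged 7 weeks, and no wild-type testis was measured. W/Wv mice carry mutant alleles of the gene for the Kit receptor and have few germ cells, so that their tubules consist largely of Sertoli cells. The regions were told apart by trypan blue injected through the efferent ducts and were cut by hand, so each array measured whole pieces with all cell types they held. In such pieces fewer cells of a type and less RNA per cell cannot be told apart.

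Sertoli cells line the seminiferous tubule, carry germ cells through their development and form the blood-testis barrier. Where the tubule ends, modified Sertoli cells close in on the lumen like a valve and hand the fluid over to the rete testis, a network of channels lined by a simple epithelium with keratins, which drains into the efferent ducts. The valve region is known for Sertoli cells rich in stabilized microtubules and for enzymes that break down retinoic acid, the vitamin A derivative that drives spermatogonia to differentiate.

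Values are MAS5 signals, a summary of probe brightness on a linear scale, and fold changes are log2 differences of SV minus ST with the standard error of the limma fit. A probe set was called at a Benjamini-Hochberg adjusted p under 0.05 over all probe sets together with a change of over 2-fold. Every array was scaled to the same level (mean signal without the lowest and highest 2% of values, 500.0), and the median signal was 65.8 to 96.5 across the 8 arrays. Signals of 4 arrays are always given in the order of replicates 1 to 4. Replicates 1 and 2 differed from replicates 3 and 4 in control probe sets. The ratio of the Actb probe sets at the 3′ and the 5′ end was 1.31 to 1.38 in replicates 1 and 2 and 1.73 to 2.12 in replicates 3 and 4 of SV and ST. In rank correlation over probe sets, SV replicate 3 had 0.951 with SV replicate 4, 0.950 with ST replicate 3 and 0.930 with SV replicate 1, and SV replicate 4 had 0.953 with ST replicate 4. No label says what set the replicates apart, and the part of this difference in the results was not tested.

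The tissue labels were checked against marker genes. Of 23 Sertoli cell markers measured, none was called in either direction in SV, and all 23 had a fold change below 0 with a median of -0.30. Their summed signal was 184106 to 249212 in SV and 226572 to 292452 in ST. Sox9, a transcription factor of Sertoli cells, had a log2 fold change of -0.25 ± 0.19, adjusted p = 0.654, and Wt1, another such factor, -0.21 ± 0.12, adjusted p = 0.533. Of 14 rete testis epithelium markers, 8 were higher in SV and none was lower, with a median log2 fold change of 2.16. The summed signal of the rete markers was 1546 to 1942 in ST, 4570 to 9828 in SV and 24856 to 40873 in RT, and the level in SV lay between the other regions for the sum. How much rete testis epithelium was in the SV pieces was not tested, and this applies to each gene below that was brighter in RT than in SV.

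Of the 45101 probe sets, 675 (1.5%) were higher in SV than in ST and 30 (0.0665%) were lower. The higher probe sets belong to 483 genes, with 66 probe sets of no single symbol, and the lower ones to 23 genes, with 6 such probe sets. No gene had probe sets in both directions. Of the higher probe sets 270 were over 4-fold, 126 over 8-fold, 51 over 16-fold and 14 over 32-fold, and 11 of the lower ones were over 4-fold and 6 over 8-fold. The median log2 fold change was 1.76 among the higher probe sets (quartiles 1.31 and 2.66), its size was 1.32 among the lower ones (quartiles 1.16 and 2.80), and it was 0.001 over all probe sets. The lowest SV array lay above the highest ST array in 648 of the higher probe sets (96.0%), against 4.64% of all probe sets, and the arrays were apart in all 30 lower ones, against 2.81%. Since the call rests on the same arrays, the arrays being apart is a description and not a further test.

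**Figure D1:**
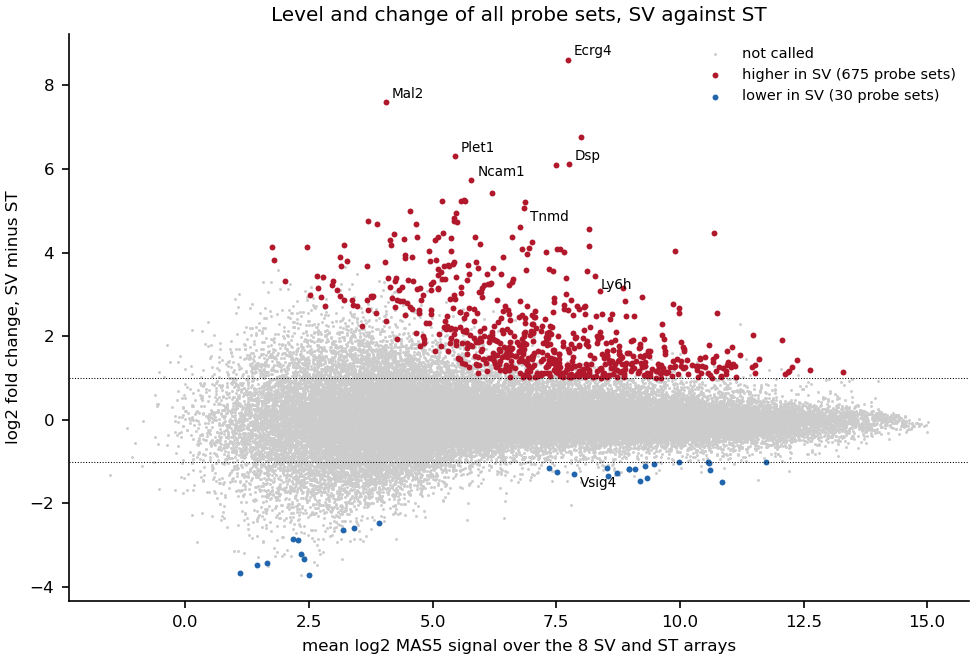
Each point is 1 probe set, with its mean log2 MAS5 signal over the 8 SV and ST arrays on the x axis and its log2 fold change, SV minus ST, on the y axis. The 675 probe sets called higher reach a log2 fold change of 8.62 and run from dim to bright levels, while the 30 called lower either lie just below the dotted 2-fold line or are dim.

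Dim signals bear on the size of the changes. The mean ST signal was under 32 in 192 of the 675 higher probe sets (28.4%), where a log2 ratio is set by values near background. With all signals under 32 set to 32, 402 of the 675 were still called, and fold changes with that floor are given below for higher genes described singly in which it moved the log2 value by 0.1 or more. The floor also changes the spread that limma fits. Of the 273 higher probe sets that lost the call with it, 144 had all 8 signals at 32 or above, so that their fold change was the same and only the adjusted p moved, as for 14 of the 25 lower ones that lost it. With the replicate number as a block, all 675 and all 30 were called, and the count over all probe sets came to 995 higher and 104 lower. Without SV replicate 1, 381 were higher and 12 lower, without SV replicate 4, 402 and 18, and without SV replicate 3, 1269 and 155, while leaving out SV replicate 2 or ST replicate 2 gave 12 lower each.

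Several of the largest rises were of genes known from epithelia. Named here are the 15 genes with the largest change among called probe sets with 1 symbol, SV and ST arrays that do not overlap and a mean SV signal above the median of all probe sets. First was Ecrg4, which encodes a secreted peptide precursor of several epithelia, with signals of 7507, 3553, 2208 and 5419 in SV and 17.96, 6.58, 3.07 and 36.7 in ST. The log2 difference came to 8.62 ± 0.60, adjusted p = 8.58e-06, and 7.00 with the floor of 32. Every SV array was far above every ST array, and all 3 probe sets of the gene were called. Mal2, a membrane protein that sorts cargo to the apical surface of epithelial cells, had 369, 216, 111 and 323 in SV and 0.868, 2.39, 1.15 and 0.833 in ST. ST arrays were at background for this probe set, and the log2 fold change of 7.60 ± 0.45, adjusted p = 2.42e-06 shrank to 2.85 with the floor. Plet1, a surface protein of epithelial progenitors, had 715, 371, 160.3 and 531 in SV and 5.95, 4.27, 4.23 and 5.36 in ST (6.31 ± 0.42, adjusted p = 4.8e-06, or 3.60 with the floor). Dsp, the desmoplakin that anchors keratin to desmosomes, had 2723, 1352, 1108 and 2587 in SV and 19.4, 21.5, 26.8 and 39.8 in ST (6.12 ± 0.30, adjusted p = 8.34e-07, 5.74 with the floor). All 4 genes were brightest in RT, with signals of 20292, 16353 and 17486 for Ecrg4, 1535, 1378 and 1132 for Mal2, 5859, 4751 and 2271 for Plet1 and 10195, 7284 and 9913 for Dsp.

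The adhesion molecule gene Ncam1 followed with signals of 720.0, 268, 246 and 545 in SV and 12.2, 9.99, 5.29 and 4.89 in ST (5.74 ± 0.38, adjusted p = 4.8e-06, or 3.65 with the floor). The keratin gene Krt8 had 975, 411, 291 and 455 in SV and 12.8, 15.9, 3.73 and 20.7 in ST (5.42 ± 0.51, adjusted p = 8.42e-05, 3.91 with the floor). SV and ST arrays were again apart, and all 3 probe sets of Krt8 and 2 of the 7 of Ncam1 were called. The IgM receptor gene Fcmr, the lectin-like gene Clec2l, the acid phosphatase gene Acpp, the branched-chain aminotransferase gene Bcat1, the uroplakin gene Upk3b, Gm3515 and Smim5 had log2 fold changes between 4.82 and 5.24, and between 2.04 and 4.43 with the floor. In each of these 7 the lowest SV array was above the highest ST array, with ST signals of at most 37.4 and SV signals of at least 84.0. Within SV, replicate 3 was the dimmest of the 4 arrays for each of the 15 genes.

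**Figure D2:**
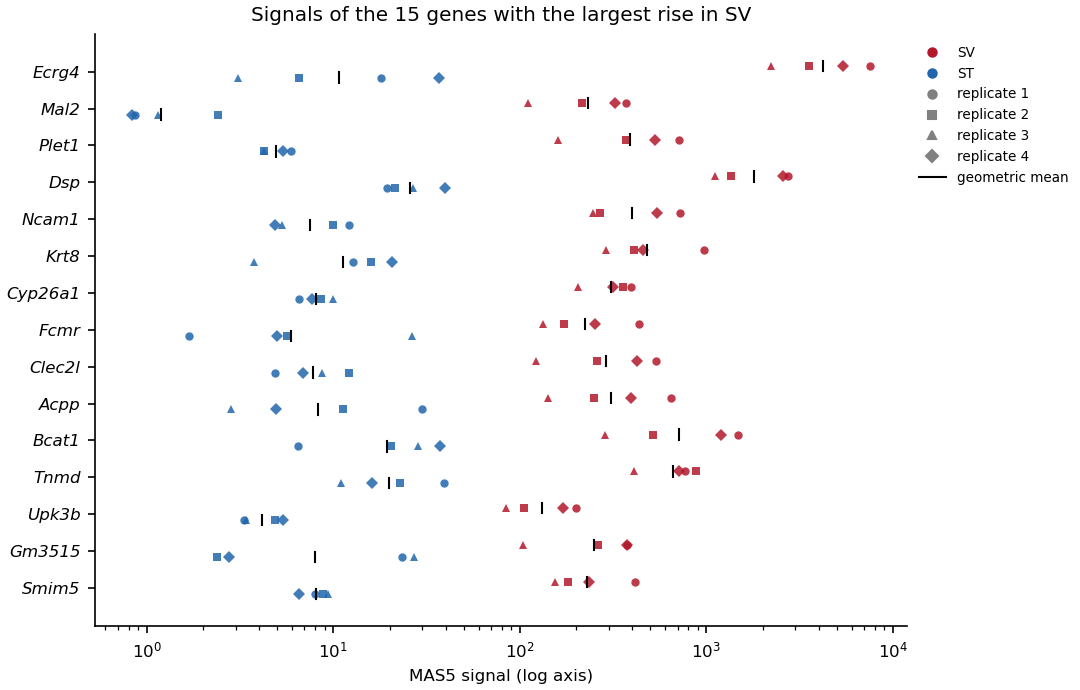
MAS5 signal of each SV and ST array on a log x axis for the 15 genes with the largest rise, by rank from the top, with 1 marker shape per replicate and a bar at the geometric mean of each group. SV and ST arrays do not overlap for any gene, and the triangle of replicate 3 is the lowest SV array in each row.

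Cyp26a1, which encodes an enzyme that breaks down retinoic acid, and Tnmd, which encodes the tendon membrane protein tenomodulin, differed from the other 13 in RT. Cyp26a1 had signals of 392, 359, 206 and 317 in SV and 6.56, 8.59, 9.92 and 7.66 in ST, with a log2 fold change of 5.26 ± 0.53, adjusted p = 0.000146 (3.27 with the floor), and 17.3, 16.4 and 97.3 in RT. Tnmd had 771, 875, 407 and 710.1 in SV and 38.95, 22.8, 10.98 and 16.1 in ST (5.06 ± 0.47, adjusted p = 8.2e-05, 4.31 with the floor) and 113, 73.2 and 316 in RT. For both, every SV array was brighter than every ST and RT array. In all, 32 of the 675 higher probe sets, of 29 genes, were also called against RT, with SV the brighter. The RT mean was above the SV mean in 524 of the 675.

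The promoter of Cyp26a1 is shown because it carries, close to the start site, a direct repeat that retinoic acid receptors bind. The motif searched was AGTTCA followed after 5 bases of any kind by AGTTCA, on both strands, in windows from 250 bases before to 50 bases after each RefSeq start. Promoters of 1 chromosome were left out of all searches. The motif was 1 of 9 motifs searched and was found in 3 of the 18010 promoters of measured genes (0.0167%) and in 1 of the 446 promoters of genes higher in SV (0.224%), that of Cyp26a1. A match is a description of these letters and not of binding. The 250 bases before the start, at chr19:37697558-37697807 of GRCm38.p6 on the plus strand, hold the match from base -32 to base -16, with its repeats, read on the other strand, in capitals:
Cyp26a1: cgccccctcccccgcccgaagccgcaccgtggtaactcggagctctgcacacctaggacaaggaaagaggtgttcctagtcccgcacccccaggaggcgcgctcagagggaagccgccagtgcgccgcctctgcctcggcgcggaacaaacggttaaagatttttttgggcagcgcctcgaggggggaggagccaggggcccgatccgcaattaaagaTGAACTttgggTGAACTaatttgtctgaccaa

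Of 21 measured genes of retinoid metabolism and binding, Cyp26a1 alone was called on the brightest probe set of each gene. The list's median log2 fold change was 0.11. Rdh10, which makes retinal from vitamin A, was called on another of its probe sets (1.11 ± 0.16, adjusted p = 0.00215) and had 0.83 ± 0.16, adjusted p = 0.0126 on the brighter one. Cyp26b1, a related retinoic acid hydroxylase, had 1543, 1819.7, 1839.9 and 1958 in SV and 2666, 2483, 2162 and 2185 in ST, a log2 fold change of -0.41 ± 0.13, adjusted p = 0.136, which did not pass.

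Functional classes were counted with 1 probe set per gene, the one with the highest mean log2 signal, for which 435 of 18194 genes (2.39%) were higher, 14 (0.0769%) lower and the median log2 fold change was 0.02. Of 34 class lists, 26 held at least 1 gene that was higher and none held a gene that was lower. The lists overlap in places, and their counts are set beside the 2.39% of all genes as a description. They were drawn up with earlier results of these data known, so a share above 2.39% can come in part from the choice of members.

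**Figure D3:**
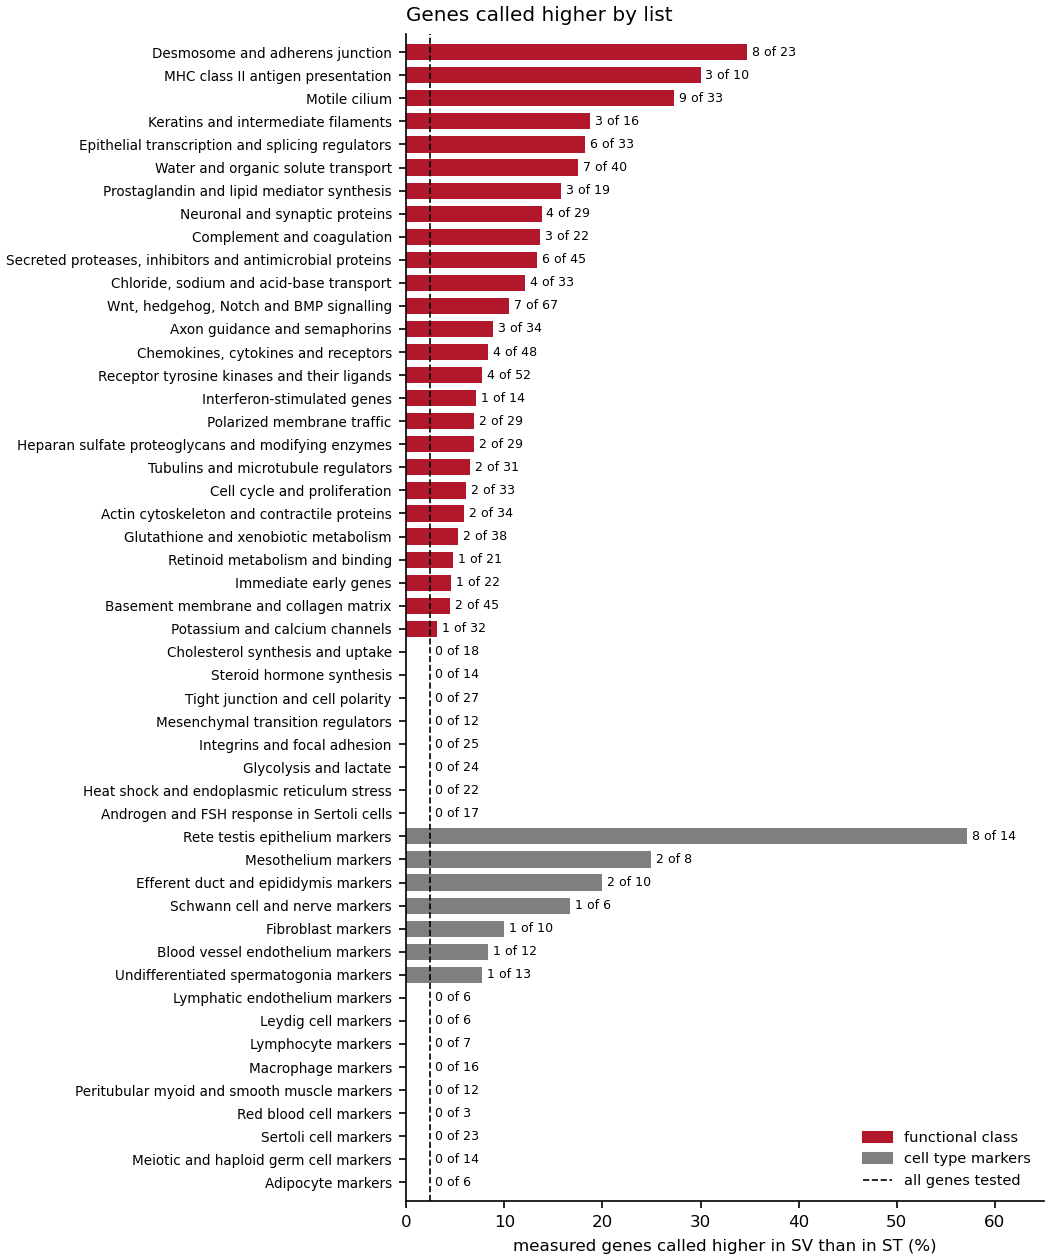
Share of measured genes called higher in SV than in ST (x axis, percent) for 34 functional classes (red) and 16 lists of cell type markers (grey), with the number called of the number measured beside each bar. The dashed line marks 2.39%, the share of all 18194 genes, and desmosome and adherens junction genes lead the classes with 8 of 23.

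Cell junction genes were the class with the largest share called. Of 23 desmosome and adherens junction genes, 8 were higher in SV, with a list median of 0.59. Besides Dsp and the plakophilin gene Pkp2 (1.40 ± 0.16, adjusted p = 0.00042) these included Cdh1, the epithelial cadherin, with signals of 2031, 1079, 716 and 1374 in SV and 51.8, 75.7, 61.7 and 86.5 in ST (4.16 ± 0.27, adjusted p = 4.51e-06). The desmosomal cadherin gene Dsg2 had 278, 142, 164 and 257 in SV and 14.8, 22.6, 23.6 and 27.5 in ST (3.23 ± 0.31, adjusted p = 9.87e-05, 2.66 with the floor). Every SV array was above every ST array for both genes. Cdh16, a cadherin of renal and duct epithelia, had 3.54 ± 0.64, adjusted p = 0.0107 and its ST signals were 50.05, 6.39, 7.14 and 5.38, so that the floor brought it to 1.77 and ended the call. Evpl, a cornified envelope protein that binds desmosomes, had 2.19 ± 0.46, adjusted p = 0.025, 1.78 with the floor and Perp, a desmosomal membrane protein, 2.16 ± 0.40, adjusted p = 0.012, 1.99 with the floor, both also lost with the floor. Epcam, an epithelial surface adhesion molecule, had 1276, 1023, 975 and 1222 in SV and 402, 499.8, 588 and 534 in ST (1.16 ± 0.17, adjusted p = 0.00284).

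None of 27 tight junction and cell polarity genes was called on its brightest probe set, and their median was 0.12. On other probe sets, 1 of the 27 was called, the polarity gene Crb3. Cldn11, the main claudin of the Sertoli cell barrier, had 6702, 9083, 6610.0 and 6184 in SV and 6848, 11200.5, 6327 and 5919 in ST (-0.05 ± 0.20, adjusted p = 0.958), with ranges that overlap. F11r, a junctional adhesion molecule, had -0.06 ± 0.16, adjusted p = 0.935. Outside that list, in the family of 20 claudins, Cldn9 (4.69 ± 0.75, adjusted p = 0.00431, 2.01 with the floor) and Cldn22 (1.22 ± 0.23, adjusted p = 0.0156) were higher. Cldn9 signals were 263, 91.2, 80.4 and 142 in SV and 7.57, 9.16, 0.674 and 13.04 in ST, and the probe set was near background in every ST array.

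Keratins and intermediate filaments had 3 of 16 genes higher, all keratins of simple epithelia: Krt18 (4.08 ± 0.38, adjusted p = 7.96e-05, 3.90 with the floor), Krt8 on its brightest probe set (3.39 ± 0.39, adjusted p = 0.000382) and Krt19 (3.17 ± 0.59, adjusted p = 0.012, 0.96 with the floor). Krt18, the partner with which Krt8 forms filaments, had 1073, 727, 553 and 874 in SV and 19.6, 45.4, 92.3 and 56.7 in ST. Krt19 reached 32.8 to 106 in SV, and its call was lost with the floor. In the whole family of 44 keratin genes, 4 were higher, the fourth being Krt79 (1.51 ± 0.30, adjusted p = 0.0186). Vim, the vimentin gene of Sertoli and mesenchymal cells, had 19463, 18380.4, 16180.3 and 16033 in SV and 22660.0, 22903, 14803 and 16810.3 in ST (-0.12 ± 0.15, adjusted p = 0.84). None of 12 regulators of mesenchymal transition was called. Of 29 genes of polarized membrane traffic, Mal2 and the tetraspanin gene Tspan8 (1.46 ± 0.32, adjusted p = 0.0297) were higher. The family of 72 Rab GTPases had none higher and Rab3b lower.

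Of 33 epithelial transcription and splicing regulators, 6 were higher and none lower, while the list's median was -0.08. Several of these factors pattern kidney and genital ducts. Pax8, a paired-box factor of the excretory ducts, had signals of 1124, 443, 303 and 676 in SV and 17.4, 40.8, 44.9 and 23.99 in ST (4.26 ± 0.38, adjusted p = 5.85e-05, 3.93 with the floor), and 3690.0, 3319 and 2831 in RT. Emx2, a homeobox factor needed for the urogenital tract, had 679, 298, 169 and 349 in SV and 22.6, 23.3, 29.3 and 16.2 in ST (3.89 ± 0.35, adjusted p = 6.83e-05, 3.37 with the floor). The arrays of both groups were apart for each of them. Ehf (2.57 ± 0.33, adjusted p = 0.00099, 2.18 with the floor), Sox17 (2.48 ± 0.32, adjusted p = 0.00102), Tfcp2l1 (2.20 ± 0.32, adjusted p = 0.00221) and Foxj1 (2.95 ± 0.40, adjusted p = 0.00124, 2.46 with the floor) were the other 4. Beyond the list, 1 of 19 Sox genes (Sox17), 2 of 38 forkhead genes (Foxj1 and Foxc1, 1.76 ± 0.20, adjusted p = 0.000313), none of 33 Hox genes, none of 16 Kruppel-like factors and 3 of 336 Zfp genes were higher.

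Genes of motile cilia formed a further group. Of 33 measured, 9 were higher and none lower, and the list's median log2 fold change was 0.94. Motile cilia beat on cells of the efferent ducts, and Foxj1 is the factor that switches on their genes. Foxj1 had 295, 139, 131 and 189 in SV and 16.8, 27.2, 33.3 and 18.5 in ST, and 2264, 2399 and 732 in RT. Pifo, a protein of the cilium base, had 355, 118, 84.8 and 208 in SV and 14.3, 12.3, 19.5 and 20.6 in ST (3.34 ± 0.42, adjusted p = 0.000763, or 2.37 with the floor). Every SV array exceeded every ST array for both. Lrrc23 (3.13 ± 0.58, adjusted p = 0.0123, 1.62 with the floor) and Rsph4a (1.83 ± 0.42, adjusted p = 0.0385, 1.28 with the floor), both of the radial spoke, Enkur (2.39 ± 0.43, adjusted p = 0.00945, 2.13 with the floor), which binds a calcium channel of the sperm tail, and Dnali1 (2.37 ± 0.52, adjusted p = 0.0311, 1.43 with the floor), an axonemal dynein chain, were also called. With the floor, Lrrc23, Dnali1 and Rsph4a lost the call and Enkur held it. Of 13 axonemal dynein genes by symbol, 2 were higher (Dnali1 and Dnah9, 1.15 ± 0.25, adjusted p = 0.0327). The cilium list's median was 1.26 in replicates 1 and 2 and 0.47 in replicates 3 and 4. By array its median excess over the ST mean was 1.40, 0.36, 0.48 and 1.19 in SV replicates 1 to 4, so the SV arrays within each set were not alike.

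Efferent duct and epididymis markers, which share Foxj1 with the cilium list, had 2 of 10 genes higher (Foxj1 and Cftr). Their summed signal was 252 to 329.5 in ST, 409 to 849 in SV and 2718 to 5696 in RT. The part of duct tissue in the cilium result was not tested. A Pifo promoter is shown because it held the motif of regulatory factor X proteins, the other class of factors known for cilium genes. Another Pifo promoter, further upstream, did not hold it. The motif, GTTGCC and then, with 2 and 1 free bases between, GG and AAC, on both strands, was found in 2 of the 446 promoters of genes higher in SV (0.448%) and in 66 of the 18010 promoters of measured genes (0.366%). The 250 bases before the start of the Pifo promoter with the motif lie at chr3:106001498-106001747 of GRCm38.p6 on the minus strand. The match, which reads on the other strand and is in capitals, runs from base -20 to base -7:
Pifo: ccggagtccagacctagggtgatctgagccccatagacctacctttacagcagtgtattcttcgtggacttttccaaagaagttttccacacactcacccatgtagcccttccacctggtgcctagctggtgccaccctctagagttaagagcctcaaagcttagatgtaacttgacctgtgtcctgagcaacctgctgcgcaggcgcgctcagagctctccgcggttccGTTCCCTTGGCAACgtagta

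Membrane transport was the next group. Of 40 genes of water and organic solute transport, 7 were higher (median 0.38), and of 33 genes of chloride, sodium and acid-base transport, 4 (median 0.06). Slc34a2, a sodium-phosphate cotransporter, had 1222, 627, 402 and 1042 in SV and 65.1, 57.96, 84.6 and 12.3 in ST (4.08 ± 0.51, adjusted p = 0.000678, 3.73 with the floor). Slc15a2, which takes up peptides, had 1453, 697, 526 and 892 in SV and 134, 134, 162 and 148 in ST (2.53 ± 0.25, adjusted p = 0.000103). The SV arrays lay above the ST arrays in both, and the spread within ST was narrow for Slc15a2. Slc1a1, a glutamate transporter, had 3.25 ± 0.50, adjusted p = 0.00343, 2.49 with the floor, Aqp1, a water channel, 2.18 ± 0.43, adjusted p = 0.0183, Slco4a1, an organic anion carrier, 1.83 ± 0.42, adjusted p = 0.0385, 1.40 with the floor, and Slc38a1, a glutamine carrier, 1.37 ± 0.21, adjusted p = 0.00279. Aqp1 signals were 281, 199, 97.9 and 260.1 in SV and 44.5, 48.2, 35.6 and 43.8 in ST, and in RT 4144, 3109 and 878.

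Among the ion transport genes, Cftr, the chloride channel mutated in cystic fibrosis, had 171, 96.1, 50.4 and 159.7 in SV and 21.1, 17.5, 28.2 and 33.8 in ST (2.14 ± 0.36, adjusted p = 0.00685). Car2, a carbonic anhydrase that makes bicarbonate, had 354, 244, 122.5 and 302 in SV and 63.4, 40.5, 51.02 and 75.6 in ST (2.08 ± 0.32, adjusted p = 0.00331). Scnn1a, a subunit of the epithelial sodium channel, had 1.86 ± 0.31, adjusted p = 0.0064, and Fxyd4, a regulator of the sodium pump, 1.51 ± 0.32, adjusted p = 0.026. Cftr lost its call with the floor, at 1.72. Over all 362 solute carriers by symbol, 11 were higher (3.04%) and 2 lower, a share close to the 2.39% of all genes. Of 32 potassium and calcium channel genes the magnesium channel gene Trpm6 (1.25 ± 0.24, adjusted p = 0.015) was higher. Of 84 potassium channels by symbol 3 were higher, among them Kcna6 with 147, 185, 111 and 246 in SV and 33.7, 34.3, 23.8 and 54.5 in ST (2.24 ± 0.36, adjusted p = 0.00462, 2.13 with the floor) and 36.6, 25.4 and 31.1 in RT.

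Of 45 secreted proteases, inhibitors and antimicrobial proteins, 6 were higher, Ecrg4 among them, with a list median of 0.42. Wfdc2, a whey acidic protein of ducts and airways, had 954, 466, 312 and 762 in SV and 30.1, 66.5, 68.1 and 34.3 in ST (3.62 ± 0.34, adjusted p = 9.24e-05). Cp, the copper-carrying ceruloplasmin, had 7478, 5247, 3310.2 and 5481 in SV and 2488, 1686, 1474 and 2030.3 in ST (1.46 ± 0.22, adjusted p = 0.00325), and 4 of its 8 probe sets were called. Timp1, an inhibitor of matrix metalloproteinases, had 2401, 2564, 1837 and 2187 in SV and 1124, 986, 929 and 1112 in ST (1.11 ± 0.15, adjusted p = 0.00136) and was dimmer in RT than in any SV array (673, 817 and 1032). Ctsh, a lysosomal cathepsin, had 3002, 3213, 2259.7 and 3115 in SV and 1520.0, 1501, 1084 and 1309 in ST (1.10 ± 0.15, adjusted p = 0.00124), and Prss23, a serine protease, 1.34 ± 0.27, adjusted p = 0.0205. Of 40 serpins by symbol 2 were higher, Serpina3n with 2051, 1804, 839 and 2140.4 in SV and 495, 344, 305 and 465 in ST (2.03 ± 0.29, adjusted p = 0.00182) and Serpinb6b (1.49 ± 0.25, adjusted p = 0.00699).

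Of 22 genes of complement and coagulation, 3 were higher: Cfi, the protease that inactivates complement, with 2066, 1027, 948 and 1819.5 in SV and 121, 166, 188 and 156 in ST (3.15 ± 0.24, adjusted p = 1.61e-05), and the scramblase genes Plscr2 (2.66 ± 0.35, adjusted p = 0.00114) and Plscr1 (1.57 ± 0.28, adjusted p = 0.00934). Of 48 chemokines, cytokines and receptors, 4 were higher. Il33, an alarmin of barrier tissues, had 591, 359, 142 and 334 in SV and 31.1, 25.7, 42.4 and 25.9 in ST (3.37 ± 0.37, adjusted p = 0.000271, 3.21 with the floor). The lowest SV array, replicate 3, was still above every ST array. Il17rb (1.36 ± 0.23, adjusted p = 0.00611), the B cell chemokine gene Cxcl13 (1.60 ± 0.35, adjusted p = 0.0301) and Ccr1 (1.26 ± 0.27, adjusted p = 0.0297) were the others.

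MHC class II genes, which present antigen, had 3 of 10 higher, with a median of 0.68. H2-Aa had 3500.1, 2425, 2350.0 and 3741 in SV and 1325, 1028, 1432 and 1508 in ST (1.17 ± 0.18, adjusted p = 0.00376). H2-Eb1 had 1473, 1308, 1223 and 2851 in SV and 523, 567, 680.1 and 958 in ST (1.28 ± 0.25, adjusted p = 0.0164). The invariant chain gene Cd74 had 1696, 1949.7, 927 and 2774 in SV and 804, 665, 523 and 891 in ST (1.27 ± 0.31, adjusted p = 0.0482). SV replicate 4 was the brightest of the 8 arrays for each of them. Of 14 interferon-stimulated genes, Oasl2 (1.10 ± 0.21, adjusted p = 0.0126) was higher. Macrophage markers had none of 16 higher and 1 lower, with a median of 0.32 and a summed signal of 25148 to 36776 in SV and 24680.4 to 28485 in ST. The part of immune cells in the MHC class II result was not tested. None of 7 lymphocyte markers was called (median 0.47). The pattern receptor genes Clec7a (2.13 ± 0.21, adjusted p = 9.87e-05) and Tlr4 (1.54 ± 0.31, adjusted p = 0.0203) were higher, with Clec2l 3 of 37 such genes.

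Signalling genes were counted in 3 lists. Of 67 Wnt, hedgehog, Notch and BMP pathway genes, 7 were higher, with a median of 0.44. Tgfb2, a growth factor of the TGF-beta family, had 1356, 786, 636 and 1296 in SV and 96.4, 81.04, 138 and 161 in ST (3.08 ± 0.26, adjusted p = 4.26e-05), and all 4 of its probe sets were called. Rspo1, which amplifies Wnt signals, had 1103, 648, 275 and 654 in SV and 124, 76.1, 66.5 and 74.3 in ST (2.86 ± 0.35, adjusted p = 0.000668). Both were brightest in RT, at 4495, 3879 and 3788 and 3873, 3653 and 2195. The ligand gene Wnt4 had 1414, 1403, 905 and 1029 in SV and 436, 387, 293 and 379.7 in ST (1.66 ± 0.17, adjusted p = 0.000191), and in RT it was dimmer than in any SV array, at 567, 481 and 526. Wnt5a (1.55 ± 0.29, adjusted p = 0.0145), the Dickkopf family gene Dkk3 (2.29 ± 0.35, adjusted p = 0.00339), the Notch target Hey2 (1.47 ± 0.34, adjusted p = 0.0392, 1.23 with the floor) and the Wnt inhibitor Sfrp1 (1.18 ± 0.18, adjusted p = 0.00346) completed them.

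Of 52 receptor tyrosine kinases and their ligands, 4 were higher (median 0.38). Gfra1, the receptor for GDNF that marks undifferentiated spermatogonia but is not limited to them, had 624, 294, 372 and 754 in SV and 53.7, 138, 168 and 173 in ST (1.97 ± 0.36, adjusted p = 0.0116) and 2379, 2328 and 2698 in RT. Of 13 markers of undifferentiated spermatogonia, Gfra1 alone was higher, and the list's median was -0.64. Ephb6 (2.07 ± 0.35, adjusted p = 0.00694), Fgfr2 (1.27 ± 0.27, adjusted p = 0.025) and Pdgfa (1.11 ± 0.14, adjusted p = 0.000589) were the other kinase or ligand genes. Gdnf, the growth factor that Gfra1 binds, had 173, 291, 467 and 260.4 in SV and 533, 380.1, 501 and 495 in ST (-0.76 ± 0.25, adjusted p = 0.175) and did not pass. Of 34 axon guidance genes, 3 were higher (median 0.25), led by Sema3d with 284, 276, 194 and 347 in SV and 5.79, 32.7, 21.6 and 10.7 in ST (4.22 ± 0.54, adjusted p = 0.000814, 3.07 with the floor). Its RT signals were 69.4, 38.2 and 143, below every SV array.

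Of 29 neuronal and synaptic genes, 4 were higher: Ncam1 (3.97 ± 0.52, adjusted p = 0.00109, 3.38 with the floor on its brightest probe set), Rasl10b (3.89 ± 0.58, adjusted p = 0.00254), Ptpn5 (1.52 ± 0.31, adjusted p = 0.0205) and the vesicle release gene Rims2 (1.31 ± 0.23, adjusted p = 0.00791). Rasl10b, a small GTPase, had 116, 157, 34.5 and 119 in SV and 8.56, 7.24, 6.24 and 3.999 in ST and 9.42, 11.4 and 5.87 in RT. Its ST signals were all under 32, and the floor brought it to 1.54 without a call. Ptpn5, a phosphatase of neurons, had 104, 189.7, 138 and 169 in SV and 43.6, 69.8, 55.4 and 40.98 in ST. Of 6 Schwann cell and nerve markers only Ncam1 was called, and the list's median was 0.01. Ly6 family surface proteins had 3 of 12 genes higher. Ly6h, which binds nicotinic receptors in brain, shared the smallest adjusted p of all genes with Dsp and had a narrow spread, with 1074, 1188, 890.5 and 962 in SV and 89.9, 132, 82.95 and 80.7 in ST (3.44 ± 0.17, adjusted p = 8.34e-07). Ly6d had 1691, 1320.4, 481 and 3440.0 in SV and 32.6, 85.2, 66.9 and 62.6 in ST (4.57 ± 0.59, adjusted p = 0.000923), with the widest gap between SV replicates 3 and 4, and Ly6e 1.15 ± 0.19, adjusted p = 0.00611.

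Cytoskeleton and matrix genes were read against the same 2.39% of all genes. Of 31 tubulins and microtubule regulators, Tubb6 (736, 738, 476 and 607 in SV and 301, 341, 239 and 203 in ST, 1.24 ± 0.22, adjusted p = 0.0102) and Tubb2a (1.12 ± 0.18, adjusted p = 0.00444) were higher, with a list median of 0.08. Of 34 actin cytoskeleton and contractile genes, Scin, an actin-severing protein, with 601, 508, 410.0 and 587 in SV and 130.1, 146, 176 and 162 in ST (1.77 ± 0.18, adjusted p = 0.000158), and Tagln2 (1.21 ± 0.20, adjusted p = 0.00562) were higher. None of 12 myoid and smooth muscle markers was called (median -0.13), and the smooth muscle actin gene Acta2 had -0.23 ± 0.22, adjusted p = 0.756. Of 45 basement membrane and collagen matrix genes, Tnmd and the tenascin gene Tnc (2.19 ± 0.46, adjusted p = 0.0266, 1.40 with the floor) were higher, and none of 42 collagens and none of 10 laminins by symbol. None of 25 integrin and focal adhesion genes was called. Of 29 heparan sulfate proteoglycans and modifying enzymes, the sulfotransferase gene Hs3st3b1 (1.21 ± 0.28, adjusted p = 0.0402) and the glypican gene Gpc1 (1.08 ± 0.20, adjusted p = 0.0106) were higher.

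Metabolic and housekeeping classes came next. None of 24 glycolysis and lactate genes (median -0.05), 14 steroid synthesis genes (0.18), 18 cholesterol genes (0.34) or 22 heat shock and endoplasmic reticulum stress genes (-0.08) was called. All 18 cholesterol synthesis and uptake genes had a fold change above 0, and Abca1, the exporter of cholesterol, had 0.18 ± 0.12, adjusted p = 0.626. None of 48 cytosolic and 76 mitochondrial ribosomal protein genes and none of 90 respiratory chain subunits was called. Of 38 glutathione and xenobiotic genes, the secreted glutathione peroxidase gene Gpx3 had 2864, 2259.9, 1101 and 2132 in SV and 556, 683, 495 and 469.9 in ST (1.86 ± 0.26, adjusted p = 0.00158) and Cyp2f2 1.16 ± 0.28, adjusted p = 0.0482. Of 19 genes of prostaglandin and lipid mediators, 3 were higher: Pla2g5 (1.81 ± 0.25, adjusted p = 0.00174), Ptger4 (1.69 ± 0.26, adjusted p = 0.00311) and Slco2a1 (1.09 ± 0.23, adjusted p = 0.0282). Of 33 cell cycle genes, Ccnd1, the cyclin of G1 phase, with 1547, 1161, 498 and 1335 in SV and 291, 303, 288 and 392 in ST (1.73 ± 0.28, adjusted p = 0.00459), and Cdk6 (1.33 ± 0.20, adjusted p = 0.00295) were higher while the list's median was -0.24. Of 22 immediate early genes, Ier3 (1.79 ± 0.20, adjusted p = 0.000297) was higher.

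The other cell type markers gave single calls. None of 6 Leydig cell, 6 lymphatic, 6 adipocyte and 3 red blood cell markers was called, with medians of 0.57, 0.86, -0.38 and -0.22. Of 12 blood vessel markers Kdr, the main VEGF receptor, had 1000.1, 872, 604 and 1044 in SV and 174, 240.4, 152 and 257 in ST (2.10 ± 0.20, adjusted p = 9.87e-05), and the list's median was 0.70. Of 8 mesothelium markers Upk3b and Gpm6a (3.41 ± 0.41, adjusted p = 0.00054, 2.18 with the floor) were higher, and of 10 fibroblast markers Fbln1 (1.83 ± 0.22, adjusted p = 0.000517). Summed mesothelium marker signal was 948 to 1387 in SV, 760.2 to 829 in ST and 1876 to 2216 in RT. Whether mesothelium in the pieces takes part in these calls was not tested.

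Of the 48 families formed by gene symbol, 36 held at least 1 called gene, to be read against 2.39% of all genes higher, and the shares of metalloproteases (1.64%), glycosyltransferases (2.17%) and Tmem genes (0.917%) were below that. Beside those above, cadherins and protocadherins had 3 of 61 higher, tetraspanins 1 of 19, integrins 1 of 29, proteasome subunits 1 of 44 (Psmb8, 1.08 ± 0.21, adjusted p = 0.0165), cytochrome P450 genes 4 of 70, metalloproteases 1 of 61 and cathepsins 1 of 22. Adhesion and orphan receptors had 4 of 88, receptor tyrosine phosphatases 2 of 19, chemokines 2 of 32, interleukins and receptors 5 of 73, MHC genes 2 of 23 and S100 proteins 1 of 15. Semaphorins and plexins had 3 of 30, ephrins and their receptors 2 of 21, fibroblast growth factors and receptors 1 of 28, Wnt and Frizzled genes 3 of 30, with the opposite-strand gene Fzd10os as 1 of them, glycosyltransferases 2 of 92, sulfotransferases 3 of 40, carbonic anhydrases 1 of 14, heat shock and DnaJ proteins 2 of 72 and Tmem genes 2 of 218. None of 24 myosins, 41 kinesins, 19 glutathione S-transferases, 10 UDP-glucuronosyltransferases and 11 annexins was called.

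The small heat shock gene Hspb8 of these families had 2043, 1649.7, 1219 and 1617 in SV and 375, 353, 439 and 523 in ST (1.94 ± 0.17, adjusted p = 4.6e-05). The steroid hydroxylase gene Cyp21a1, whose probe sets may also read a related pseudogene, had 587, 711, 186 and 602 in SV and 103, 209.7, 89.01 and 106 in ST (1.96 ± 0.39, adjusted p = 0.02). In Cyp21a1 SV replicate 3 was below ST replicate 2. The receptor phosphatase genes were Ptprf (1.25 ± 0.16, adjusted p = 0.00076) and Ptprz1 (1.54 ± 0.23, adjusted p = 0.00254). Among genes the study had picked from its own SV arrays, which are therefore no independent evidence, Cyp26a1, Ptpn5, Sfrp1 and Ctsh passed here. This was against ST alone, while the study picked probes higher in SV but not in RT, each against ST. In the limma fit RT minus ST was 1.90, -0.02, 1.12 and 0.85 for these 4 genes (adjusted p = 0.0266, 0.979, 0.000875 and 0.00143). SV minus RT was 3.36, 1.53, 0.06 and 0.25 (adjusted p = 0.00187, 0.00762, 0.897 and 0.358). Camp, an antimicrobial peptide, had 99.6, 125, 128 and 113 in SV and 39.02, 29.7, 37.8 and 10.1 in ST (2.17 ± 0.59, adjusted p = 0.0816) and was called with the replicate block (adjusted p = 0.029). Asic2, a proton-gated channel, had 208, 159, 216 and 280.2 in SV and 67.99, 117, 80.7 and 64.1 in ST (1.40 ± 0.34, adjusted p = 0.0527) and was likewise called with the block (adjusted p = 0.0288). Both had arrays that do not overlap. Il34 (1.04 ± 0.42, adjusted p = 0.278) and Gpnmb (1.12 ± 0.42, adjusted p = 0.235) passed neither fit.

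Lower genes were fewer than higher ones. In 11 of the 30 lower probe sets the mean SV signal was under 32, and 5 of the 30 were called with the floor of 32, which left the fold change of 14 of the other 25 as it was. Among those with 1 symbol, the deepest log2 fold changes, from -3.71 to -2.59, were those of Gh, Oog3, Klhl4, Skor1, Gm10857 and Champ1, all with a mean SV signal under 32 and none held with the floor. Of 15 named by the same rule, the largest fall was that of 4930486L24Rik, with 794, 1042, 1929.9 and 928 in SV and 3414, 2813, 3012 and 3094 in ST (-1.48 ± 0.33, adjusted p = 0.0339). Rab3b, a GTPase of secretory vesicles, had 283, 405, 524 and 431 in SV and 1057, 1053, 885 and 1258 in ST (-1.40 ± 0.30, adjusted p = 0.0273). Slc6a4, the serotonin transporter, had 144, 194, 433 and 252 in SV and 657, 466, 669 and 627 in ST (-1.35 ± 0.32, adjusted p = 0.0446). SV replicate 3 was the SV array nearest to ST in each of the 3. Vsig4, a complement receptor of resident macrophages, had 141, 173, 206 and 95.3 in SV and 447, 353, 400.1 and 278 in ST (-1.30 ± 0.24, adjusted p = 0.0122). Emp1, an epithelial membrane protein, had 228, 229.7, 427 and 248 in SV and 644, 549, 782 and 679 in ST (-1.27 ± 0.20, adjusted p = 0.00444). These 2 genes held the call with the floor. So did Rgcc, a cell cycle regulator, with -1.18 ± 0.20, adjusted p = 0.00593, Tnni3, a troponin of striated muscle, with -1.21 ± 0.21, adjusted p = 0.00747, and the adhesion gene Alcam, with 575, 732, 823 and 731 in SV and 1492, 1267, 1593 and 1400.1 in ST (-1.01 ± 0.15, adjusted p = 0.00301). Only 1 of the 2 probe sets of Emp1, 1 of the 2 of Rgcc and 1 of the 5 of Alcam were called lower.

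Germ line genes were among the lower ones. Dazl, an RNA-binding protein of germ cells and 1 of the 13 spermatogonia markers, was called on a probe set other than its brightest, with 288, 414, 502 and 293 in SV and 608, 1175, 805 and 814 in ST (-1.19 ± 0.24, adjusted p = 0.0206) and 85.6, 73.8 and 115 in RT. Spink2, a protease inhibitor of the male germ line, had 70.2, 133, 194 and 111 in SV and 279, 363, 271 and 229.9 in ST (-1.24 ± 0.29, adjusted p = 0.0442). The highest SV array was below the lowest ST array for both. Of 14 meiotic and haploid germ cell markers none was called, with a median of -0.36. Stra8, the gene that retinoic acid turns on at the start of meiosis, had 112, 104, 245 and 121 in SV and 223, 349, 352 and 409 in ST (-1.25 ± 0.36, adjusted p = 0.107), passed with the replicate block (adjusted p = 0.0265) and had overlapping arrays. Their summed signal was 505 to 1059.7 in SV and 786 to 1536 in ST, and that of the 13 spermatogonia markers 6052 to 8414 in SV and 9053 to 11921 in ST. Whether fewer germ cells in the SV pieces take part in the fall of Dazl and Spink2 was not tested.

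Ank3 (-1.18 ± 0.27, adjusted p = 0.0385), an ankyrin of the membrane skeleton, the sulfate transporter gene Slc13a4 (-1.15 ± 0.28, adjusted p = 0.0491), the Wnt adaptor gene Dixdc1 (-1.15 ± 0.26, adjusted p = 0.0394), Zbed5 (-1.10 ± 0.25, adjusted p = 0.0375), the HMG-box gene Tox (-1.05 ± 0.23, adjusted p = 0.0297) and Racgap1 (-1.04 ± 0.22, adjusted p = 0.0257), which is needed to divide the cell, were the other 6 named. Only 1 of the 6 probe sets of Ank3, 1 of the 3 of Tox, 1 of the 3 of Racgap1 and 2 of the 4 of Dixdc1 were called lower. Of the 30 lower probe sets, 21 were also lower in RT than in ST, and 17 had an RT mean below the SV mean. None of 17 androgen- and FSH-response genes of Sertoli cells was called, though 16 of them had a fold change below 0 and the list's median was -0.69, against 0.02 over all genes. Fabp5, a fatty acid binding protein, had 7406, 9234, 16373 and 8462 in SV and 17210.3, 15908, 16273 and 14234 in ST (-0.69 ± 0.26, adjusted p = 0.252). Eppin, a protease inhibitor under androgen control, had 3811, 4414, 8137 and 5064 in SV and 9483, 8440.1, 9771 and 8854 in ST (-0.83 ± 0.19, adjusted p = 0.043), a change of under 2-fold. With the replicate block, which called 3.3% of all genes higher and 0.313% lower, 3 of the 17 were lower, and 2 of the 23 Sertoli cell markers. Among those markers Fshr, the FSH receptor, had 429, 511, 1048 and 776 in SV and 1429, 1215, 1349.7 and 1384 in ST (-1.05 ± 0.28, adjusted p = 0.0822). Rhox5, a homeobox gene driven by androgen, had 1776, 2688, 6120.2 and 3006 in SV and 7758, 6339.6, 7828 and 7005 in ST (-1.24 ± 0.46, adjusted p = 0.232). In both genes SV replicate 3 was the brightest SV array.

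**Figure D4:**
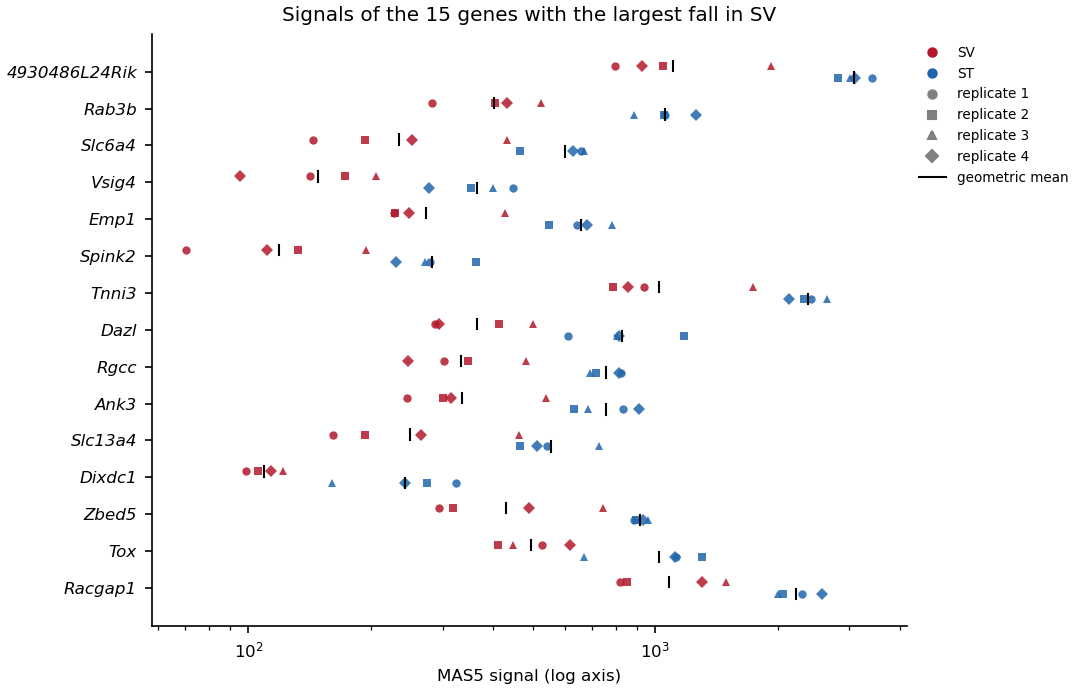
MAS5 signal of each SV and ST array on a log x axis for the 15 genes with the largest fall, drawn as for the rises. The groups do not overlap, the log2 fold changes are -1.04 to -1.48, and replicate 3 (triangle) is the highest SV array in most rows.

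Whether the replicates showed the same changes was asked by testing replicates 1 and 2 apart from replicates 3 and 4, which share no SV or ST array but 1 estimate of the spread. In replicates 1 and 2, 704 probe sets (1.56%) were higher and 135 (0.299%) lower. Of the 704, 96.3% had the same sign in replicates 3 and 4, where 48.6% of all probe sets were above 0, and 61.1% were over 2-fold upward there, against 9.22% of all probe sets. Of the 135 lower ones, 95.6% had the same sign, but 6.67% were over 2-fold downward, no more than the 7.17% of all probe sets. In replicates 3 and 4, 181 probe sets (0.401%) were higher and 2 (0.00443%) lower. Of the 181, 99.4% had the same sign and 96.7% were over 2-fold upward in replicates 1 and 2, against 51.2% and 11.6% of all probe sets. Of the 2 lower, 1 had the same sign.

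Across all probe sets 64.3% had the same sign in both sets, and the fold changes of both sets correlated with a Pearson r of 0.24 and a Spearman rho of 0.28, over probe sets, which are not independent. All 675 higher and all 30 lower probe sets of the whole comparison kept their sign in each set, which the call on all arrays favours. Their median log2 fold change was 1.94 in replicates 1 and 2 and 1.52 in replicates 3 and 4 for the higher ones, and -1.61 and -1.16 for the lower ones. The difference between both sets was tested for each probe set by limma. None passed an adjusted p of 0.05 (smallest adjusted p = 0.531), and 3.61% had an unadjusted p under 0.05. With the floor of 32, 34 probe sets passed.

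**Figure D5:**
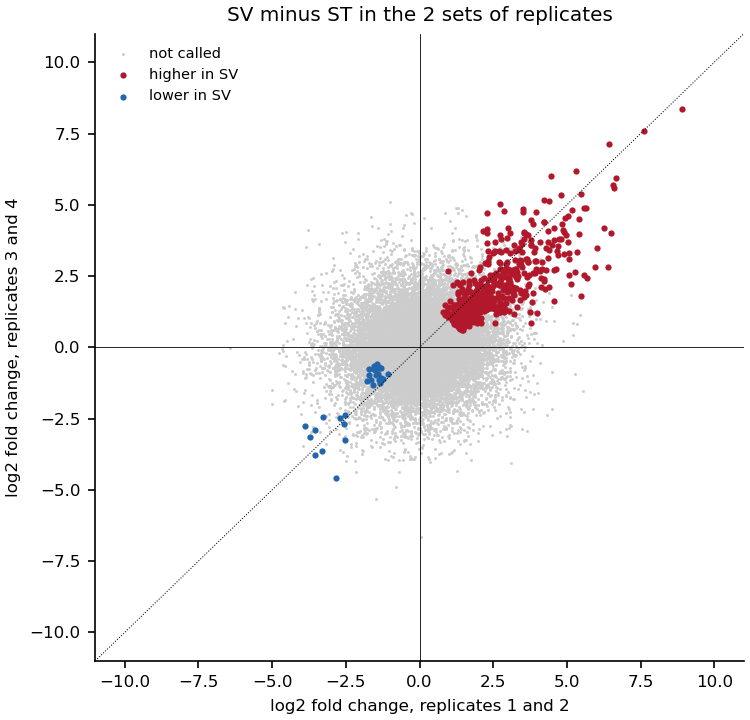
Log2 fold change, SV minus ST, in replicates 1 and 2 (x axis) and in replicates 3 and 4 (y axis), 1 point per probe set, with the dotted line where both are equal. Probe sets called higher over all arrays lie in the upper right quadrant and those called lower in the lower left, while most of the others spread around 0 with a Pearson r of 0.24 over all points.

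Single genes differed in how alike both sets were. Mal2 had log2 fold changes of 7.61 (replicates 1 and 2) and 7.59 (replicates 3 and 4), Ly6h 3.38 and 3.50, Emp1 -1.38 and -1.16, and Cyp26a1 5.64 and 4.87. Among genes with a wider gap, Krt18 had 4.89 and 3.26, Pifo 3.95 and 2.73, and Zbed5 -1.55 and -0.65. The 4 SV arrays were not equally far from ST. Over the 675 higher probe sets the median log2 signal above the ST mean was 2.11, 1.78, 1.19 and 1.92 in SV replicates 1 to 4, and over the 30 lower ones -1.87, -1.52, -0.81 and -1.48. SV replicate 3 was the lowest SV array in 560 of the 675 and the highest in 22 of the 30. The 14 rete testis markers had a median excess over the ST mean of 2.82, 2.05, 1.60 and 2.30 in SV replicates 1 to 4. Since 8 of the 14 were themselves called higher, these values are no separate measure. The part of rete testis epithelium in the place of SV replicate 3 was not tested.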

How the data were processed

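RNA of SV (n = 4), ST (n = 4) and RT (n = 3) had been amplified with a 3′ in vitro transcription kit and hybridised to 1-colour Affymetrix mouse arrays. The authors deposited 1 linear signal intensity per probe set and array, computed by MAS5 and scaled, with no raw probe values used here. The number of arrays limits the precision, and p-values measure only the spread between these pools. Signals were taken to log2 and fitted with limma 3.58.1 in R 4.3.3 (lmFit over all 11 arrays, eBayes with trend), two-sided, with Benjamini-Hochberg adjustment over 45101 probe sets and no filter. Gene symbols came from the platform annotation, and 1 probe set per gene, the one with the highest mean log2 signal, stood for it in the lists.

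Named are the 15 genes with the largest change in each direction, up to 6 called genes per list and direction (2 with the highest mean where none was called), genes the study named, and 5 with the smallest adjusted p. A few others (Epcam, Rdh10, Cyp26b1, Gdnf, Sox9, Wt1, Fshr, Rhox5 and the dim lower genes) were added after their values were seen. Members and lists were chosen with earlier results of these data known. Of 1174 listed genes, 82 were not analysed here. Families were formed by symbol. Deviations from the group means correlated between SV and ST arrays of the same number, with r of 0.16, 0.14, 0.17 and 0.19 in replicates 1 to 4. Other numbers of the same set had 0.070 to 0.14, close to these, and arrays across sets had -0.18 to -0.11. No label says that a number marks shared mice. Whether the numbers pair the samples is therefore not settled, and the replicate number was entered as a block only as an alternative fit. Promoters came from RefSeq, GRCm38.p6, with those of 1 chromosome left out, and the rest covered 14369 of 18195 measured genes. The script was tested on simulated data.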

Additional observations from a re-analysis of the deposited data

Results flagged for a closer look

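Of 302 groups of 4 arrays tested for a single array far from the other 3, 7 were picked out, where chance gives about 1 in 20 groups. SV replicate 3 was the array in 3 of them, with a signal of 186 for Cyp21a1 and 563 for Il17rb, both lowest, and 427 for Emp1, highest. In ST, replicate 1 stood apart for Cdh16 (50.05, highest) and Sfrp1 (142, lowest), replicate 2 for Cldn22 (129.7, highest) and replicate 4 for Ccnd1 (392, highest). For Emp1, Il17rb, Cdh16, Sfrp1, Cldn22 and Ccnd1 the SV and ST arrays did not overlap in spite of this array.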

How the results depend on the processing

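The fit over all 11 arrays called 675 probe sets higher and 30 lower. The methods' t-test, run here on log2 signals, which the methods do not specify, gave 1302 higher and 432 lower unadjusted. After Benjamini-Hochberg it gave 69 and 0, and limma unadjusted with the same fold gave 1662 and 562. The study reported fewer probes higher in SV than this t-test gave unadjusted, so its own count was not reproduced here. A floor of 32 gave 412 and 10, eBayes without trend 426 higher, and replicates 1 and 2 alone 1127 and 192. Fits of 1 set alone also used its RT arrays, and RT has no replicate 4, so that of replicates 3 and 4 held fewer arrays. Replicates 3 and 4 alone gave 0 and 0 by limma, although 181 and 2 were called for them with the spread of all arrays. Lower calls alone moved to 51 with median centring and 18 with 32 added. They came to 104 with the replicate block, 80 with both sets as a block and 117 with no fold threshold. Leaving out 1 array gave 381 to 1269 higher and 12 to 155 lower. Of the probe sets higher in replicates 1 and 2, the share with the same sign in replicates 3 and 4 was 98.2% with dim probe sets left out, 86.4% without trend, 100% with the floor, 98.3% with 32 added, 98.3% with only the SV and ST arrays, 90.0% by unadjusted p, and 86.9% to 98.9% with 1 array left out. For the lower ones it was 75% without trend, 100% with the floor, 80.6% by unadjusted p, and 75% to 97.6% with 1 array left out. The floor let 34 probe sets pass the test of the difference between both sets, where 0 passed otherwise. The causes were not tested.

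No named and called gene changed its sign, and the replicate block changed no call among them, while of 132 called 38 lost the call with the floor, 48 without trend, 113 by the methods' t-test with Benjamini-Hochberg, 132 in replicates 3 and 4 alone and 0 to 41 with 1 array left out, so that 0 held it under every alternative. Signs near 0 turned for Acta2 (0.00089 in replicates 3 and 4 alone), Vim (0.030 there), Cldn11 (0.063 there, and -0.17 to 0.15 with 1 array left out) and F11r (0.079 there, and -0.15 to 0.034).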
